A study of Mus musculus with 14 samples.

Results

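The genes of the pre-mRNA splicing machinery and of the heterogeneous nuclear ribonucleoproteins (hnRNPs) were followed in single mouse oocytes with and without maternal Kdm1a, the gene for the histone demethylase also called LSD1. Every gene of the count table was taken whose symbol begins with Srsf, Hnrnp, Snrp, Sf3a, Sf3b, Prpf or U2af, apart from pseudogene symbols ending in -ps. The rule gave 68 of the 24064 genes in the table, namely 11 Srsf, 20 Hnrnp, 12 Snrp, 9 Sf3a and Sf3b, 13 Prpf and 3 U2af genes. The oocytes were ovulated eggs arrested in the second meiotic division. Each was amplified as poly(A) cDNA from a single cell, covering up to 3 kb from the 3′ end, and sequenced.

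The control group held 4 wt/wt oocytes (wt1, wt3, wt4 and wt5; C57BL/6J) and 1 f/f oocyte (C3; mixed B6;129), in which both Kdm1a alleles are floxed and no Cre is present. The 5 mutants (D1, D2, D3, D4 and D7; mixed B6;129, labelled mko/mko) came from f/f females that also carry Zp3-cre, a transgene whose promoter is active in growing oocytes and which removes the first exon of Kdm1a. The sample titles are written in a different style for the wt/wt oocytes than for all others, and library series below means this naming alone. Strain and library series thus changed together between the wt/wt oocytes and all others, and C3 is the one control that shares them with the mutants. C3, D3, D4 and D7 each had a further library with -DNA in its title, which no wt/wt library had. What this suffix marks was not examined. The labels do not name the female each oocyte came from, so every p-value below measures the spread between these oocytes, which may be partly technical. The 14 libraries were summed to 10 oocytes by oocyte name, with 1375187 to 6928548 counts per oocyte. Kdm1a itself had 70, 43, 85 and 27 counts in the wt/wt oocytes, 669 in C3, and 0, 2, 4, 3 and 10 in the mutants. Oocyte markers were present in all 10 oocytes, at a summed level of 20773 to 35932 counts per 1000000 (CPM) in wt/wt oocytes, 62306 CPM in C3 and 61449 to 126454 CPM in the mutants, and 7 of 12 were called higher in the mutants. Of 12 cumulus and granulosa cell markers, 8 had no count, and the summed level was 9.42 to 55.3 CPM in wt/wt oocytes, 62.8 CPM in C3 and 80.4 to 147 CPM in the mutants, most of it from Cyp19a1. The part of either difference in the results below was not tested. CPM are shares of an oocyte's counts over library sizes adjusted by trimmed mean of M values (TMM) scaling, so less RNA in an oocyte as a whole cannot be seen in them.

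Splicing removes introns in steps carried out by small nuclear ribonucleoproteins (snRNPs), each a small nuclear RNA carrying a ring of Sm proteins and particle-specific proteins. U2AF marks the 3′ end of the intron, SF3A and SF3B place the U2 snRNP on the branch point, and the PRPF proteins belong largely to the U4/U6.U5 tri-snRNP and to the complexes that activate it. SR proteins, the products of the Srsf genes, mostly favour the use of exons to which they bind, whereas hnRNPs package nascent transcripts and often oppose exon use. Fully grown oocytes stop transcribing before ovulation, so the mRNA of an ovulated egg is the store laid down during growth, less what has been degraded since.

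Of the 68 members, 61 were abundant enough to be tested, and 16 of them (26.2%) were called between mutant and control oocytes. A call means a Benjamini-Hochberg adjusted p below 0.05 together with a log2 fold change of 1 or more in either direction, in edgeR over TMM-adjusted sizes unless another fit is named. The share over all 9198 genes tested was 25.9%, so splicing genes as a class were called about as often as the rest. They divided evenly. U2af1, Prpf8, Sf3b6, Hnrnpl, Hnrnpu, Srsf1, Srsf4 and Srsf9 rose (8 members, against 14.7% of all genes), while Prpf4b, Snrpd1, Snrpd3, Srsf3, Hnrnpa0, Hnrnpa2b1, Hnrnpa3 and Hnrnpr fell (8 members, against 11.2% of all genes). The median log2 fold change of the 61 members was -0.12, beside 0.17 over all genes tested. In 11 of the 61 members the mutant and control oocytes did not overlap, which held for 16.2% of all genes tested, and 9 of those 11 were called. Over total counts in place of TMM-adjusted sizes the median of all genes moved from 0.17 to -0.22, and 21 members were called, 7 higher and 14 lower (all genes: 28.6% called, 10.5% higher and 18.1% lower), so the even division depends on the scaling.

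**Figure D1:**
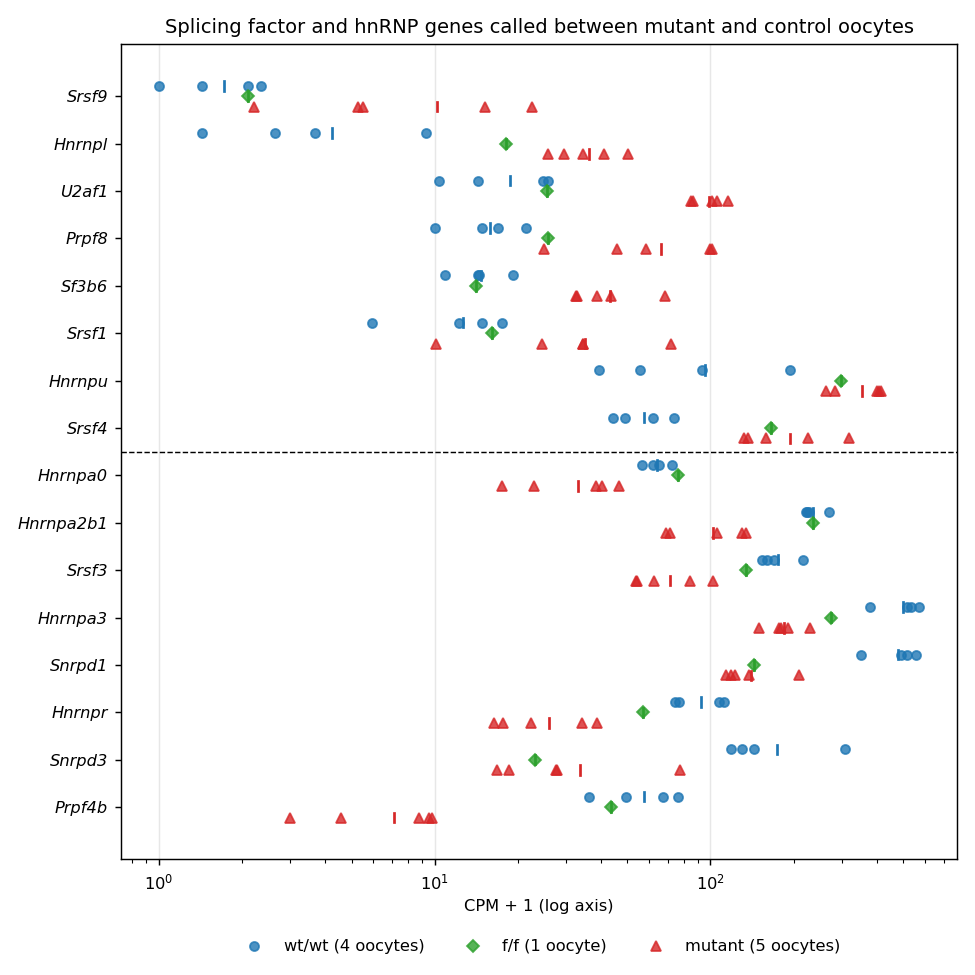
CPM + 1 (log axis) of the 16 members called, in each oocyte; blue circles are wt/wt, the green diamond is the f/f oocyte C3, red triangles are mutant, and short vertical bars are group means. The 8 members above the dashed line were called higher in the mutants and the 8 below it lower; C3 sat inside the wt/wt range for U2af1, Sf3b6, Srsf9, Hnrnpa2b1 and Prpf4b and inside the mutant range for Snrpd1, Snrpd3, Srsf4, Hnrnpu and Prpf8.

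The stretches just upstream of the transcription start are shown for 4 called members whose stretch lies outside the gene in GENCODE as well. Srsf1 and Hnrnpu rose and Hnrnpr and Hnrnpa2b1 fell in the mutants. Each line gives the 120 bases before the RefSeq start in the direction of transcription, on GRCm38.p6, with every CpG in capitals. They lie at chr11:88047253-88047372 on the plus strand, chr1:178337816-178337935 on the minus strand, chr4:136310822-136310941 on the plus strand and chr6:51469895-51470014 on the minus strand.
Srsf1: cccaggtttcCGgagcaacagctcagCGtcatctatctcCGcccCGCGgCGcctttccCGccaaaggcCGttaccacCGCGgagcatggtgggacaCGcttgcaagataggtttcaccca
Hnrnpu: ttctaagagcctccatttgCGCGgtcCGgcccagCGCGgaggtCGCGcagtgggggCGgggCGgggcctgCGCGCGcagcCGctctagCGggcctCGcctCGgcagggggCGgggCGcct
Hnrnpr: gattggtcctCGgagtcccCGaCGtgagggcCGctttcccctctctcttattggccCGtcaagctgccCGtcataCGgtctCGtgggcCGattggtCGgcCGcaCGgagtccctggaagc
Hnrnpa2b1: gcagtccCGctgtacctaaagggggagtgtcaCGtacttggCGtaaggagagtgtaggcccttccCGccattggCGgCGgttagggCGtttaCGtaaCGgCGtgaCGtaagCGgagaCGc
They hold 11, 18, 12 and 13 CpG in that order, so the counts of the members that rose spanned those of the members that fell. The RefSeq table held the promoters of 59 members, from 250 bases before to 50 bases after the RefSeq start, which for some members, U2af1, Sf3b6 and Prpf4b among them, lies inside the gene as GENCODE gives it, with a median of 25 CpG, beside 21 in 7033 genes tested and 7 in all 27025 genes of the table. Among the called members the median was 27.5 for the 8 that rose and 34 for the 7 of the 8 that fell and had an entry, and the ranges, 16 to 49 and 18 to 52, overlapped. Of 4 motifs searched on both strands, none of which holds another, CCGGAAG, the core of an ETS site, was in 32.2% of the members' promoters, 18.8% of those of the genes tested and 9.12% of all. GGGCGG, known as the GC box, was in 66.1%, 64.0% and 35.9%, CCAAT, bound by NF-Y, in 49.2%, 39.7% and 37.9%, and TATAAA, bound by TBP, in 10.2%, 6.95% and 14.2%. The ETS core was in 2 of the 8 promoters of members that rose, 1 of the 7 of members that fell and 15 of the 37 of members tested and not called.

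**Figure D2:**
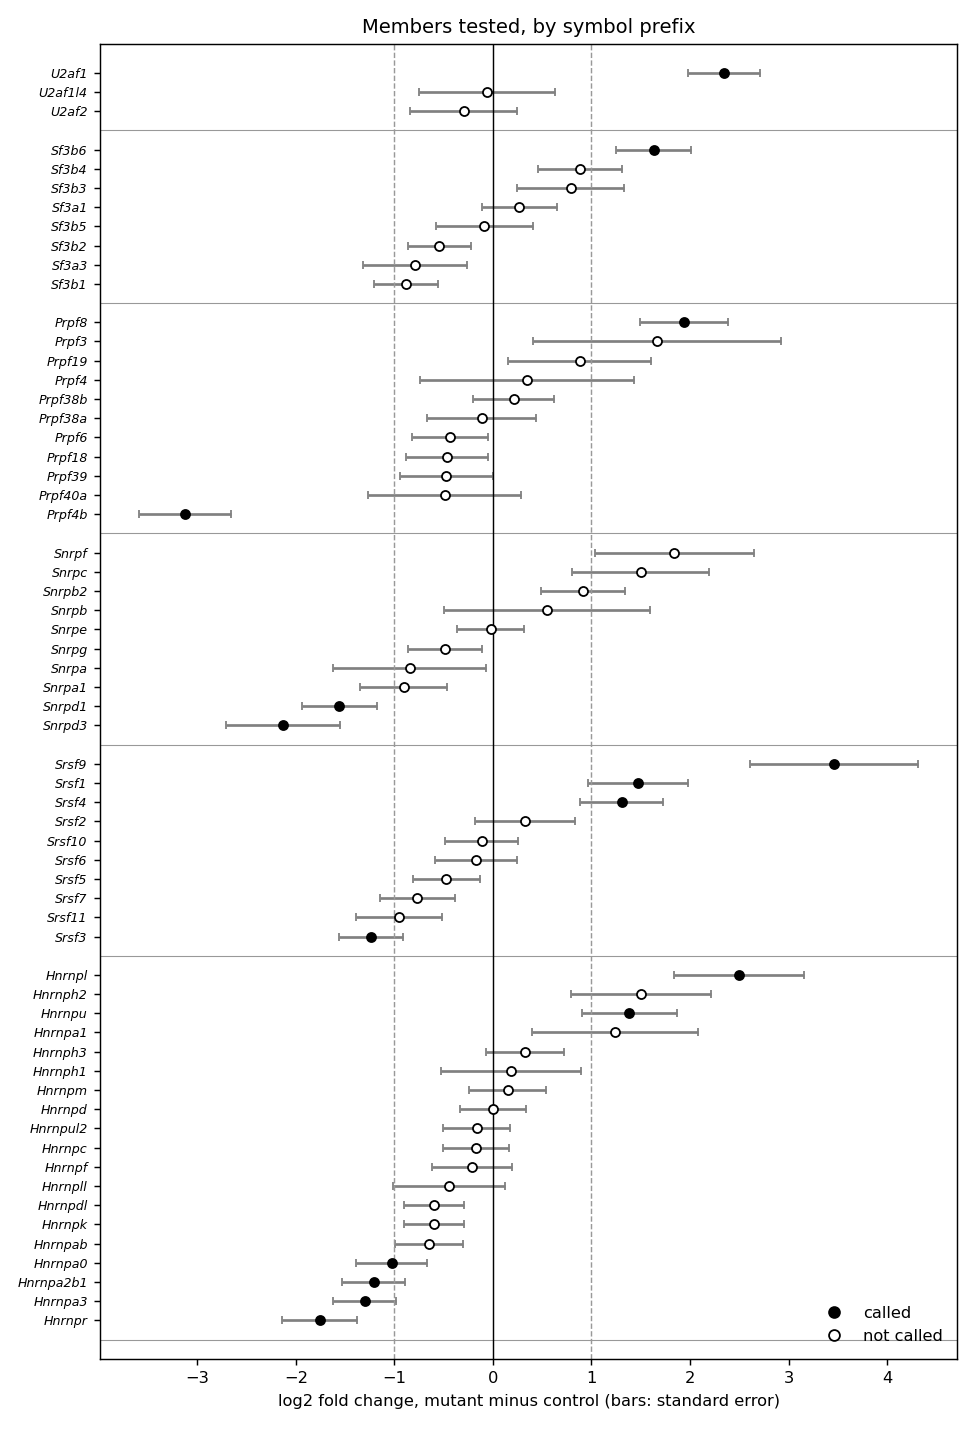
Mutant minus control difference in log2 level (x axis) with its standard error for the 61 members tested, by symbol prefix; filled points were called, open points were not, and dashed lines mark -1 and 1. Called members lie on both sides of 0 in the Srsf, Hnrnp and Prpf genes, and the range runs from -3.12 for Prpf4b to 3.47 for Srsf9.

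Among the genes that recognise the 3′ splice site, U2af1 showed the clearest rise. U2AF1 is the small subunit of U2AF and contacts the AG at the intron end. The gene (chromosome 17, 31647081 to 31658892, minus strand, mm10) was at 23.8, 13.4, 9.41 and 24.7 CPM in the wt/wt oocytes, 24.6 CPM in C3 and 85.6, 115, 100.1, 84.0 and 104 CPM in the mutant oocytes. All 5 mutant oocytes lay above all 5 controls, and C3 was within the wt/wt range (log2 fold change 2.34, standard error 0.37, edgeR adjusted p = 0.00069). The mean was 17.8 ± 7.59 CPM (SD, n = 4) in wt/wt and 97.7 ± 12.9 CPM (SD, n = 5) in mutant oocytes. Of the 49-base words in the last 3 kb of its transcripts, as long as a read, 59.6% are also found in transcripts of 3 pseudogenes, so part of its reads may have been dropped or counted elsewhere. Its partner U2af2, whose product binds the polypyrimidine tract, was at 19.3, 26.3, 15.5 and 18.8 CPM in the wt/wt oocytes, 103 CPM in C3 and 45.5, 47.5, 23.1, 16.6 and 17.9 CPM in the mutant oocytes (log2 fold change -0.30, standard error 0.54, edgeR adjusted p = 0.72). It was not called, and C3 stood above every other oocyte. U2af1l4, a paralogue of U2af1, stayed at or below 5.18 CPM in each oocyte. Of its words, 97.2% are shared with transcripts of Gm49396 and Psenen, so its reads too may have been dropped or counted elsewhere. For U2af2 the share was 25.2%.

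The Sf3a and Sf3b genes encode the U2 snRNP subunits that hold the branch point, and 1 of the 8 tested was called. Sf3b6, whose product sits at the branch point adenosine within SF3B, was at 18.2, 13.4, 13.5 and 9.87 CPM in the wt/wt oocytes, 13.1 CPM in C3 and 42.8, 67.6, 31.7, 31.6 and 37.9 CPM in the mutant oocytes. Again no mutant oocyte overlapped a control, and C3 was within the wt/wt range (log2 fold change 1.63, standard error 0.38, edgeR adjusted p = 0.0062). Over library totals the call was lost (edgeR adjusted p = 0.059). Sf3b1, the largest SF3B subunit, was at 482, 535, 469 and 325 CPM in the wt/wt oocytes, 359 CPM in C3 and 202, 175, 327, 176 and 298 CPM in the mutant oocytes and had the highest level of the group per kb of exon, 29.5 CPM per kb. Its mean was lower in the mutants but fell short of the call (log2 fold change -0.88, standard error 0.32, edgeR adjusted p = 0.054). Without D3 it was called (edgeR adjusted p = 0.041), as it was over library totals (log2 fold change -1.35, edgeR adjusted p = 0.012). Sf3a1 was at 44.8, 31.9, 40.1 and 32.3 CPM in the wt/wt oocytes, 80.8 CPM in C3 and 34.0, 54.2, 59.8, 45.5 and 84.3 CPM in the mutant oocytes (log2 fold change 0.27, standard error 0.38, edgeR adjusted p = 0.63), and the ranges overlapped. Sf3b2 was not called, although each of its mutant oocytes (30.5 to 46.6 CPM) was below each control (47.0 to 63.4 CPM). Summed over the 9 genes, the level was 649 to 844 in the wt/wt oocytes, 584 in C3 and 467 to 572 in the mutant oocytes (CPM). The mutants were thus lowest, but over total counts C3 came to 379 CPM, below the mutant oocytes.

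In the Prpf genes, 2 of 11 tested were called, in opposite directions. Prpf4b (chromosome 13, 34875302 to 34906064, plus strand), a kinase of the spliceosome that phosphorylates tri-snRNP proteins, had the strongest fall of all members. It was at 35.4, 75.5, 48.3 and 66.4 CPM in the wt/wt oocytes, 42.6 CPM in C3 and 8.78, 8.53, 3.56, 7.76 and 1.99 CPM in the mutant oocytes. The lowest control was above the highest mutant, with C3 inside the wt/wt range (log2 fold change -3.12, standard error 0.46, edgeR adjusted p = 0.00055). None of its 49-base words occurs in another gene's transcripts. Prpf8, the large U5 protein at the catalytic centre, was at 20.4, 9.06, 15.9 and 13.9 CPM in the wt/wt oocytes, 24.9 CPM in C3 and 98.7, 101, 57.3, 23.9 and 44.9 CPM in the mutant oocytes. It rose (log2 fold change 1.94, standard error 0.45, edgeR adjusted p = 0.006), but C3 lay above D4 and so within the mutant range. Prpf6, which bridges the U5 and U4/U6 particles and had the highest level of the Prpf genes per kb of exon (36.3 CPM per kb), was at 106 to 194 CPM in the wt/wt oocytes, 189 CPM in C3 and 35.7 to 171 CPM in the mutant oocytes (log2 fold change -0.44, standard error 0.39, edgeR adjusted p = 0.43). D4 was well below the other mutants there, and the call was not reached. Prpf19, the ubiquitin ligase of the complex named after it, had 2, 11, 3 and 1 counts in the wt/wt oocytes, 26 in C3 and 12, 16, 12, 19 and 5 in the mutant oocytes (log2 fold change 0.88, standard error 0.72, edgeR adjusted p = 0.39), and with counts thinned to the lowest total it was called higher (log2 fold change 2.57, edgeR adjusted p = 0.036).

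The Snrp genes encode the proteins of the snRNP particles, and both calls among the 10 tested were falls in genes for the Sm D proteins of the ring. Snrpd1 was at 351, 516, 489 and 555 CPM in the wt/wt oocytes, 143 CPM in C3 and 118, 122, 136, 113 and 208 CPM in the mutant oocytes (log2 fold change -1.56, standard error 0.38, edgeR adjusted p = 0.0088). The 4 wt/wt oocytes were above all others, but C3 lay among the mutants. Snrpd3 showed the same arrangement at 129, 142, 118 and 306 CPM in the wt/wt oocytes, 22.2 CPM in C3 and 15.9, 17.7, 26.7, 26.5 and 76.8 CPM in the mutant oocytes (log2 fold change -2.13, standard error 0.58, edgeR adjusted p = 0.014). Against C3 alone, with no replicate of that genotype, the Snrpd3 log2 fold change was 0.59 and that of Snrpd1 was -0.01, so both falls were measured against the wt/wt oocytes and not against the control that shares strain and library series with the mutants. 14.3% of the Snrpd1 words and 5.59% of the Snrpd3 words are shared with other transcripts.

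Other ring proteins tested against all controls were not called. Snrpe had the highest level of the group per kb of exon (347 CPM per kb) and was at 301, 479, 489 and 453 CPM in the wt/wt oocytes, 675 CPM in C3 and 306, 311, 568, 560.0 and 617 CPM in the mutant oocytes (log2 fold change -0.02, standard error 0.34, edgeR adjusted p = 0.97). Snrpg was at 270.3 to 907 CPM in the wt/wt oocytes, 629 CPM in C3 and 253 to 609 CPM in the mutant oocytes (log2 fold change -0.48, standard error 0.38, edgeR adjusted p = 0.36), with overlapping ranges. Snrpb, for SmB, had only 10, 2, 1 and 10 counts in the wt/wt oocytes, 0 in C3 and 13, 3, 0, 29 and 5 in the mutant oocytes (log2 fold change 0.55, standard error 1.05, edgeR adjusted p = 0.73), and its groups overlapped. Snrpn, an imprinted gene whose product can take the place of SmB, had 0 counts in every oocyte, as had Snurf, which shares its transcript. Snurf and Gm38393 overlap Snrpn on the same strand, and whether reads shared by overlapping genes were dropped in the counting was not tested. As far as counting error goes, a count of 0 allows up to 3 counts assigned to the gene, which stand for 0.456 CPM in D4, the deepest oocyte on this scale, and 1.83 CPM in D2, the shallowest.

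Snrpf, Snrpb2 and Snrpa1 were not called in the main edgeR comparison against all 5 controls but were called in edgeR against the 4 wt/wt oocytes. They were named after their values were seen. In Snrpf and Snrpb2 the mutant and wt/wt oocytes did not overlap and C3 lay among the mutants. Snrpf, another ring protein, was at 26.5, 20.7, 10.6 and 42.6 CPM in the wt/wt oocytes, 500.2 CPM in C3 and 263, 584, 471, 299 and 545 CPM in the mutant oocytes. It missed the threshold against all controls (log2 fold change 1.84, standard error 0.81, edgeR adjusted p = 0.1) and passed it against wt/wt alone (log2 fold change 4.10, standard error 0.47, edgeR adjusted p = 3.6e-05). Ccdc38, on the opposite strand and overlapping Snrpf, was at 27.6, 15.1, 13.9 and 39.5 CPM in the wt/wt oocytes, 408 CPM in C3 and 228, 516, 429, 228 and 480.1 CPM in the mutant oocytes, in the same order of groups, and 89.7% of the Snrpf words occur in transcripts of other genes. Whether the counting used strand is not given in the sources used here, so the reads of both genes cannot be told apart. Snrpb2, a protein of the U2 particle, was at 290.1, 207, 236 and 108 CPM in the wt/wt oocytes, 692 CPM in C3 and 461, 553, 722, 450.1 and 696 CPM in the mutant oocytes (against wt/wt alone log2 fold change 1.48, standard error 0.34, edgeR adjusted p = 0.0042). Snrpa1, its partner on U2 RNA, went the other way at 29.3 to 99.3 CPM in the wt/wt oocytes, 19.1 CPM in C3 and 22.5 to 47.9 CPM in the mutant oocytes (against wt/wt alone log2 fold change -1.14, standard error 0.39, edgeR adjusted p = 0.034). For Snrpa1 the mutant and wt/wt ranges overlapped, and C3 was below every other oocyte. Against all 5 controls Snrpf was called with limma voom (adjusted p = 2.3e-05), DESeq2 (adjusted p = 0.044) and edgeR over library totals, with no filter or with thinned counts, Snrpb2 with limma voom (adjusted p = 0.0036) and Snrpa1 over library totals (edgeR adjusted p = 0.042).

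**Figure D3:**
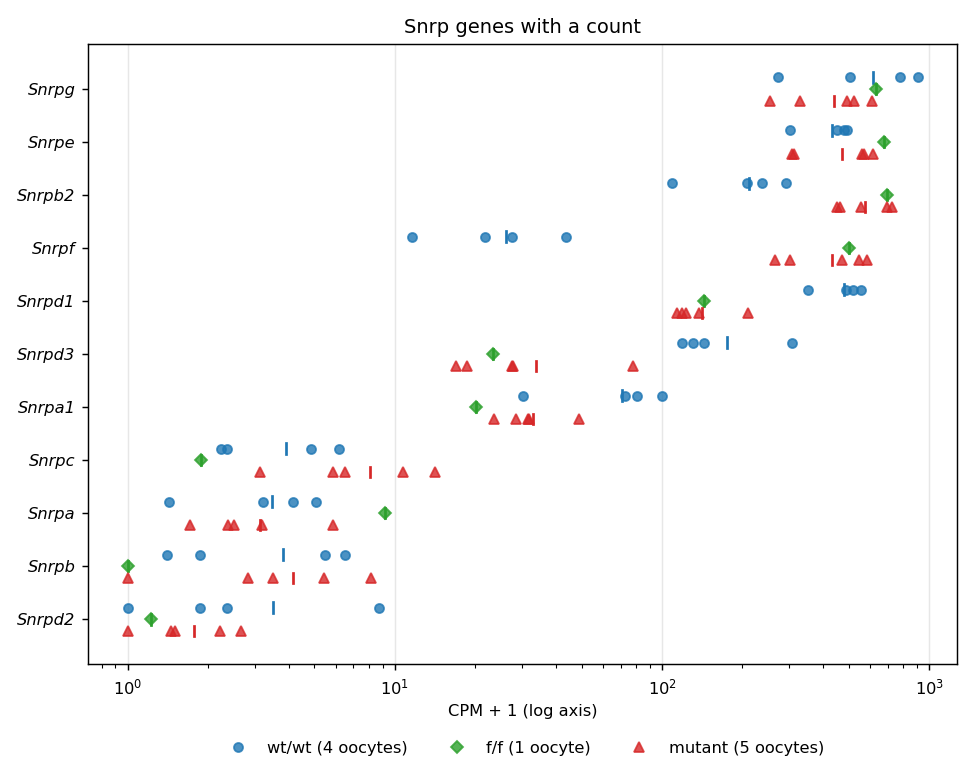
CPM + 1 (log axis) of the 11 Snrp genes with a count, in each oocyte, with the symbols of the plot of called members and ordered by mean CPM. For Snrpf, Snrpb2, Snrpd1 and Snrpd3 the green diamond of C3 sits with the red triangles of the mutants and apart from the 4 wt/wt oocytes.

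The Srsf genes had 4 calls among 10 tested, with 3 rises and 1 fall. Srsf3, the smallest SR protein, was at 153, 216, 169 and 159 CPM in the wt/wt oocytes, 133 CPM in C3 and 52.7, 53.0, 83.0, 61.6 and 101 CPM in the mutant oocytes. The mutants were below all controls and C3 was just below the lowest wt/wt oocyte (log2 fold change -1.24, standard error 0.33, edgeR adjusted p = 0.013). 15.1% of its words are shared with other transcripts. Srsf4, one of the longer SR proteins, had the highest Srsf level per kb of exon (38.1 CPM per kb) and was at 60.8, 47.9, 72.8 and 43.5 CPM in the wt/wt oocytes, 165 CPM in C3 and 159, 132, 317, 136 and 225 CPM in the mutant oocytes (log2 fold change 1.31, standard error 0.42, edgeR adjusted p = 0.032). C3 was within the mutant range, and leaving out wt1, wt3, wt4, wt5 or D3, or removing the GC and length trends, lost the call (log2 fold change 1.08 to 1.80 over all oocytes left out in turn). 48.9% of its words are also in transcripts of Gm12992, which may have taken part of its reads. Srsf1, which promotes the use of many exons, was at 13.8, 11.2, 4.91 and 16.6 CPM in the wt/wt oocytes, 15.1 CPM in C3 and 33.5, 9.14, 33.5, 71.0 and 23.4 CPM in the mutant oocytes. D2 lay below 3 of the 4 wt/wt oocytes while D4 was highest (log2 fold change 1.48, standard error 0.51, edgeR adjusted p = 0.041), and leaving out wt1, wt3, wt4, D1, D3 or D4 lost the call, with a log2 fold change of 1.02 to 1.70 over all oocytes left out, as did library totals (edgeR adjusted p = 0.14) and limma voom (adjusted p = 0.06). Srsf9 was scarce, with 2, 1, 0 and 3 counts in the wt/wt oocytes, 5 in C3 and 26, 2, 12, 142 and 9 in the mutant oocytes (log2 fold change 3.47, standard error 0.85, edgeR adjusted p = 0.0087). D2 was within the range of the controls in counts, and the fold change of so few control counts depends on the prior count. Without D4 it was 2.85, and with counts thinned to the lowest total the call was lost (log2 fold change 2.43, edgeR adjusted p = 0.072).

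Srsf2, an SR protein that binds exonic enhancers of many transcripts, was at 86.2, 104, 69.1 and 72.2 CPM in the wt/wt oocytes, 38.9 CPM in C3 and 68.0, 44.5, 51.6, 262 and 34.9 CPM in the mutant oocytes and was not called (log2 fold change 0.32, standard error 0.51, edgeR adjusted p = 0.67). Its mutant mean rested on D4, and without D4 the log2 fold change was -0.56. 35.3% of its words are also in transcripts of Mettl23 and Mfsd11, which overlap it. In D4 these had 21 and 132 counts. Srsf11 was at 30.1 to 47.0 CPM in the wt/wt oocytes, 16.0 CPM in C3 and 7.68 to 31.3 CPM in the mutant oocytes and was called lower against the wt/wt oocytes alone (log2 fold change -1.13, standard error 0.41, edgeR adjusted p = 0.045), and against all controls with limma voom (adjusted p = 0.02) and over library totals (edgeR adjusted p = 0.042). It was named after its values were seen. The remaining Srsf genes tested, Srsf5, Srsf6, Srsf7 and Srsf10, had log2 fold changes of -0.77 to -0.12 and were not called in edgeR, though Srsf7 was over library totals (log2 fold change -1.28, edgeR adjusted p = 0.045).

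The Hnrnp genes were the most numerous, and 6 of 19 tested were called, 4 lower and 2 higher. The falls included abundant members of the A/B class, which bind nascent RNA widely and can silence exons. Hnrnpa2b1 was at 221, 227, 222 and 268 CPM in the wt/wt oocytes, 234 CPM in C3 and 70.2, 68.2, 105, 134 and 129.6 CPM in the mutant oocytes. Controls and mutants did not overlap and C3 lay within the wt/wt range (log2 fold change -1.21, standard error 0.32, edgeR adjusted p = 0.013). Hnrnpa3 was at 377, 515, 534 and 571 CPM in the wt/wt oocytes, 273 CPM in C3 and 149, 179, 228, 177 and 190.0 CPM in the mutant oocytes, with C3 between both groups (log2 fold change -1.30, standard error 0.32, edgeR adjusted p = 0.0088). Hnrnpa0 was at 55.3, 60.8, 64.2 and 71.3 CPM in the wt/wt oocytes, 75.5 CPM in C3 and 21.9, 45.7, 39.5, 16.6 and 37.4 CPM in the mutant oocytes. It was just past the threshold (log2 fold change -1.03, standard error 0.36, edgeR adjusted p = 0.044), with C3 above all wt/wt oocytes. The call was lost without any 1 oocyte other than D2, at log2 fold changes of -0.85 to -1.19 over all 10 oocytes left out. Hnrnpr (chromosome 4, 136310942 to 136359447, plus strand), which binds mRNA in nucleus and cytoplasm, had the largest fall of the Hnrnp genes at 111, 106, 75.6 and 73.1 CPM in the wt/wt oocytes, 55.7 CPM in C3 and 15.4, 21.3, 33.1, 16.7 and 37.9 CPM in the mutant oocytes. Every mutant was below C3, and C3 was below every wt/wt oocyte (log2 fold change -1.76, standard error 0.38, edgeR adjusted p = 0.0042).

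The rises were in Hnrnpl and Hnrnpu. Hnrnpl, whose product binds CA repeats and regulates alternative exons, was at 8.29, 0.432, 1.64 and 2.69 CPM in the wt/wt oocytes, 17.1 CPM in C3 and 24.7, 33.5, 40.2, 28.4 and 49.4 CPM in the mutant oocytes. C3 was above the wt/wt oocytes and below the mutants (log2 fold change 2.50, standard error 0.66, edgeR adjusted p = 0.013), and without C3 the log2 fold change was 3.46. Hnrnpu, a nuclear scaffold protein that binds chromatin and RNA, was at 193, 92.4, 54.4 and 38.6 CPM in the wt/wt oocytes, 297 CPM in C3 and 282, 261, 402, 407 and 413 CPM in the mutant oocytes (log2 fold change 1.38, standard error 0.48, edgeR adjusted p = 0.043). C3 was among the mutants, and without any 1 oocyte other than C3 the call was lost (log2 fold change 1.16 to 1.91 over all 10 oocytes left out). Hnrnpa1, the best known splicing silencer of the class, was at 3.87, 0, 3.27 and 2.69 CPM in the wt/wt oocytes, 36.9 CPM in C3 and 14.3, 17.7, 21.4, 11.7 and 49.9 CPM in the mutant oocytes. With C3 among the mutants it was not called against all controls (log2 fold change 1.24, standard error 0.84, edgeR adjusted p = 0.29), and it was called against the wt/wt oocytes alone (log2 fold change 3.21, standard error 0.72, edgeR adjusted p = 0.0037). Against all controls it was called with limma voom (log2 fold change 3.43, adjusted p = 0.0031) and with counts thinned to the lowest total (log2 fold change 2.25, edgeR adjusted p = 0.043). 27.1% of its words are shared, all of them with transcripts of 20 pseudogenes.

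Other abundant Hnrnp genes were not called in edgeR over TMM-adjusted sizes. Hnrnpc, which binds uridine tracts and keeps nascent RNA in the nucleus, was at 334, 204, 279 and 228 CPM in the wt/wt oocytes, 408 CPM in C3 and 264, 314, 274, 133 and 307 CPM in the mutant oocytes (log2 fold change -0.17, standard error 0.34, edgeR adjusted p = 0.74). D4 was lowest and C3 highest of all oocytes. Hnrnpk, which binds cytidine tracts, was at 290.1, 297, 231 and 325 CPM in the wt/wt oocytes, 275 CPM in C3 and 151, 177, 153, 274 and 180.0 CPM in the mutant oocytes (log2 fold change -0.60, standard error 0.31, edgeR adjusted p = 0.16). Apart from D4 each mutant was below each control, and over library totals it was called lower (log2 fold change -1.04, edgeR adjusted p = 0.038). Hnrnpf, which binds guanine tracts, had the highest Hnrnp level per kb of exon (171 CPM per kb) and was at 609, 369.8, 479.7 and 329.7 CPM in the wt/wt oocytes, 1008 CPM in C3 and 343, 203, 687, 633 and 543 CPM in the mutant oocytes (log2 fold change -0.21, standard error 0.41, edgeR adjusted p = 0.73), and 67.5% of its words are shared with other genes. The 9 further Hnrnp genes tested were lowest in log2 fold change for Hnrnpab (-0.65) and highest for Hnrnph2, and none was called in the main edgeR comparison. With limma voom Hnrnph1 and Hnrnph2 were called higher (adjusted p = 0.039 and 0.02), and over library totals Hnrnpab was called lower (edgeR adjusted p = 0.048). Hnrnph2 was among the 11 members without overlap, at 0 to 14.4 CPM in the wt/wt oocytes, 11.5 CPM in C3 and 16.4 to 37.9 CPM in the mutant oocytes.

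**Figure D4:**
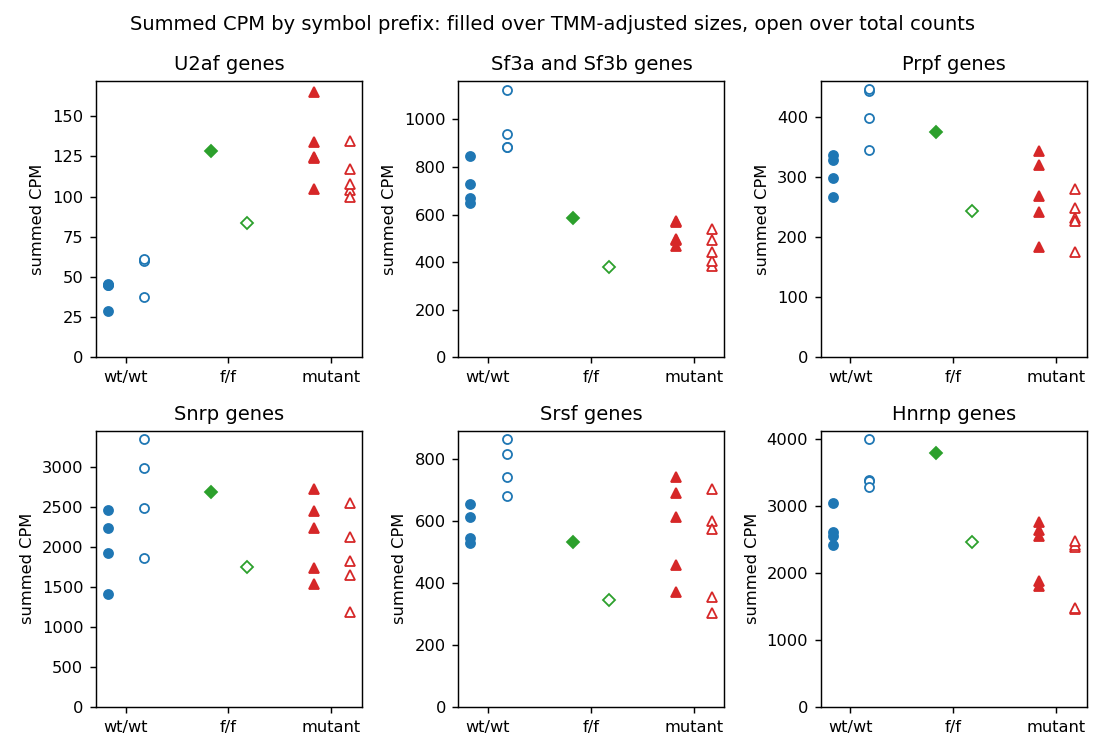
Summed CPM of the members with each symbol prefix, in each oocyte of the wt/wt, f/f and mutant groups; filled symbols are over TMM-adjusted library sizes and open symbols over total counts. The U2af sum is higher in the mutants than in wt/wt oocytes and the Sf3a and Sf3b sum lower on both scales, while the place of the f/f oocyte C3 changes with the scale.

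Summed by prefix, the U2af genes came to 29.0 to 45.9 in the wt/wt oocytes, 129 in C3 and 105 to 165 in the mutant oocytes (CPM); the value of C3 was carried by U2af2. The Srsf genes came to 528 to 656 in the wt/wt oocytes, 532 in C3 and 371 to 742 in the mutant oocytes, the Hnrnp genes to 2412 to 3033 in the wt/wt oocytes, 3789.6 in C3 and 1805 to 2751 in the mutant oocytes, the Snrp genes to 1417 to 2460.2 in the wt/wt oocytes, 2689 in C3 and 1537 to 2724 in the mutant oocytes and the Prpf genes to 266 to 337 in the wt/wt oocytes, 375 in C3 and 184 to 343 in the mutant oocytes, and in each of these 4 the wt/wt and mutant ranges overlapped. Over total counts the Hnrnp ranges no longer did, at 3285 to 3991 in the wt/wt oocytes, 2464 in C3 and 1453 to 2471 in the mutant oocytes, nor did the Prpf ranges, at 344 to 446 in the wt/wt oocytes, 244 in C3 and 174 to 279 in the mutant oocytes, so whether the sums overlapped between wt/wt and mutant oocytes was tied to the scaling for these prefixes. No test was made on these sums.

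The number of members called changed with the controls used, and so did the share of all genes called, which was 25.9% against all 5 controls. Against the 4 wt/wt oocytes alone 20 of 61 were called, 11 higher and 9 lower, where 31.5% of all genes were called, 18.8% higher and 12.7% lower. Hnrnpa1, Snrpf, Snrpb2, Snrpa1 and Srsf11 were added, and Hnrnpa0 was lost. These calls share the mutant and wt/wt oocytes with the main comparison and are not independent of it. On a scale where the wt/wt mean in log2 CPM is 0 and the mutant mean is 1, C3 was past the midpoint for 11 of the 20 members (55.0%) and for 43.1% of the 2862 genes called in that comparison that were also tested against all controls, with medians of 0.66 and 0.39. Among the 16 members called against all controls, C3 lay inside the wt/wt range for 5, inside the mutant range for 5, between both ranges for 4, inside both for Srsf1 and beyond the wt/wt range, on the side away from the mutants, for Hnrnpa0. It was at 0.22 for U2af1, -0.02 for Sf3b6 and 0.11 for Prpf4b, and at 0.96 for Snrpd1, 1.12 for Snrpd3, 1.07 for Snrpf and 1.19 for Snrpb2. With a single f/f oocyte this place has no replicate, and strain, library series and the floxed allele cannot be told apart in it.

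The 7 members not tested were Hnrnpul1, Prpf31, Prpf40b, Sf3a2, Snrpd2, Snrpn and Srsf12. Snrpd2, the partner of Snrpd1 in the ring, had 29 counts over all oocytes, of which 14 were in wt1. Prpf31 had 26, Srsf12 16, of which 12 were in D4, Sf3a2 12, Hnrnpul1 4 and Prpf40b 1. Snrpd2, Sf3a2 and Prpf31 encode core spliceosome proteins, and low counts in 3′ cDNA do not show that the product is missing.

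Splicing genes outside these prefixes were taken from 8 lists, of whose 134 symbols the table held 132. Of the 108 tested, 23 (21.3%) were called, 15 higher and 8 lower, at a median log2 fold change of 0.24, beside 25.9% of all genes, 14.7% higher and 11.2% lower, and a median of 0.17. The count fell to 15 without wt1, to 14 without wt3 or wt4 and to 13 without D1. The list of other snRNP proteins had 7 of 20 called, all higher (Snrnp40, Snrnp70, Lsm2, Lsm4, Lsm5, Zcrb1 and Rnpc3). Zcrb1 and Rnpc3 encode proteins of the minor spliceosome, which removes a rare class of introns. Zcrb1 was at 6.63, 4.32, 1.64 and 19.3 CPM in the wt/wt oocytes, 11.1 CPM in C3 and 636, 231, 124, 402 and 33.9 CPM in the mutant oocytes (log2 fold change 5.04, standard error 0.76, edgeR adjusted p = 0.00058). Every mutant oocyte was above every control, with D7 nearest to them. Lsm4, a protein of the ring on U6 RNA, had 1, 6, 0 and 20 counts in the wt/wt oocytes, 6 in C3 and 138, 83, 125, 224 and 63 in the mutant oocytes (log2 fold change 4.13, standard error 0.73, edgeR adjusted p = 0.0013).

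In the Prp19 complex and related factors 3 of 14 were called, with Crnkl1 and Cwc27 higher and Plrg1 lower. Crnkl1 was at 105, 76.8, 147 and 16.6 CPM in the wt/wt oocytes, 218 CPM in C3 and 618, 315, 464, 497 and 473 CPM in the mutant oocytes (log2 fold change 2.07, standard error 0.50, edgeR adjusted p = 0.0075), and Plrg1, a core protein of the complex, at 105, 129.9, 116 and 107 CPM in the wt/wt oocytes, 57.9 CPM in C3 and 14.8, 20.7, 29.6, 19.2 and 46.4 CPM in the mutant oocytes (log2 fold change -1.98, standard error 0.39, edgeR adjusted p = 0.0026). Neither overlapped between groups. Cdc40 and Ddx46, a step factor and a helicase, were the 2 of 9 called in their list, both lower (log2 fold change -1.32, standard error 0.36, edgeR adjusted p = 0.014 for Cdc40). Of the U2-associated factors 3 of 12 were called. Htatsf1, a protein of the early U2 particle, was at 39.7 to 73.0 CPM in the wt/wt oocytes, 23.1 CPM in C3 and 1.83 to 7.60 CPM in the mutant oocytes and fell (log2 fold change -3.47, standard error 0.49, edgeR adjusted p = 0.0005), and Zrsr2, the U2AF1 relative of the minor spliceosome, rose (log2 fold change 2.45, standard error 0.77, edgeR adjusted p = 0.028), with C3 at 21.8 CPM among the mutants. Sf1, which binds the branch point before the U2 particle, was at 14.9, 19.0, 12.7 and 16.6 CPM in the wt/wt oocytes, 18.2 CPM in C3 and 50.5, 15.8, 26.7, 106 and 19.9 CPM in the mutant oocytes (log2 fold change 1.44, standard error 0.49, edgeR adjusted p = 0.041) and rose, although D2 was inside the range of the controls and D4 was far above the other mutants.

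Of the SR protein kinases and importins 1 of 7 was called. Clk2, which phosphorylates SR proteins, was at 155, 168, 187 and 88.4 CPM in the wt/wt oocytes, 16.2 CPM in C3 and 13.2, 17.7, 13.9, 8.82 and 26.4 CPM in the mutant oocytes (log2 fold change -2.95, standard error 0.55, edgeR adjusted p = 0.0017), and C3 lay within the mutant range. The exon junction complex had 2 of 8 called, Acin1 higher and Magohb lower, each with C3 inside the mutant range, and the SMN complex and Sm assembly list 1 of 8, Smn1, whose product loads the Sm ring onto RNA (log2 fold change 1.46, standard error 0.47, edgeR adjusted p = 0.031). For Smn1 too C3, at 363 CPM, was inside the mutant range. Of 30 other splicing regulators 4 were called. Tra2b, an SR-like activator, fell at 292, 377, 376 and 233 CPM in the wt/wt oocytes, 193 CPM in C3 and 100.4, 104, 167, 131 and 114 CPM in the mutant oocytes (log2 fold change -1.26, standard error 0.33, edgeR adjusted p = 0.011) and Raly fell (log2 fold change -2.26, standard error 0.65, edgeR adjusted p = 0.018), while Celf1 (log2 fold change 1.40, standard error 0.43, edgeR adjusted p = 0.025) and Taf15 (log2 fold change 3.05, standard error 0.98, edgeR adjusted p = 0.031) rose. For Raly C3, at 1.78 CPM, was below every mutant oocyte, so the fall was against the wt/wt oocytes. Taf15 had no count in any wt/wt oocyte, and its control level came from C3 at 7.99 CPM.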

How the data were processed

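Single oocytes were profiled by RNA-seq. The deposited table holds raw counts for each RefSeq gene. The authors filtered 49-base reads, aligned them to mm10 with TopHat2 (2.0.6 in the submitters' processing notes), kept unique best alignments and counted them with HTSeq, with no normalization. The strand setting is not given in the sources used here. Of the 14 count columns each was assigned to a library. The column Oo3C-DNA was taken to be the sample titled OoC3-DNA, as no other title holds the same parts. Libraries sharing an oocyte name (C3, D3, D4 and D7) were summed, each pair holding a library with -DNA in its title. Whether they are 1 oocyte is not settled by the labels, so an alternative treated each library as a sample.

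The comparison of mutants with controls used edgeR 4.0.16 in R 4.3.3 (TMM, glmQLFit, glmQLFTest, genotype as the one term, Benjamini-Hochberg adjustment) over the 9198 genes left after keeping the top 60% by total count of 15432 with a count. Calls needed an adjusted p below 0.05 and a log2 fold change of 1 or more in either direction. Log2 CPM used a prior count of 2. The depth was 1375187 to 6928548 counts per oocyte. The fits were tested on simulated data. Gene positions came from GENCODE M21 (GRCm38, which is mm10), matched by name for all 68 members, and promoters from RefSeq (GRCm38.p6). Words of 49 bases in the last 3000 bases of the members' transcripts were looked up in all GENCODE transcripts. More than 5% of the words were shared in 30 of the 68 members, among them some whose share is not given above.

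Members named were a fixed core, the called members, at most 4 in each direction per prefix by p, and the highest per kb of exon. In the lists of other splicing genes these were at most the 2 higher and 2 lower called genes of smallest p, apart from counts of called genes given by name. The members and lists were chosen with earlier results of these data known. The alternatives were DESeq2 1.42.0, limma 3.58.1 voom with quality weights, DESeq2 size factors, upper-quartile scaling, library totals, no filter, filterByExpr, adjusted p alone, every library as its own sample with and without a replicate block, 1 library per oocyte, controls of wt/wt alone or f/f alone, thinned counts, GC and length trends removed (loess, span 0.5), and each oocyte left out. Unadjusted p and leaving out members with more than 5% shared words were added after seeing the data.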

Additional observations from a re-analysis of the deposited data

Results flagged for a closer look

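In 56 sets of wt/wt or mutant oocytes, one for each group of each named member, the highest or lowest oocyte was tested for a gap to the rest by Dixon's criterion, and 8 sets had such an oocyte. For normal and independent values about 1 in 20, or 2.8 sets of 56, would be flagged. The CPM were not log-transformed and the sets share the same oocytes, so this number is a rough guide only. D4 stood apart for 3 members among the mutants, highest for Srsf2 at 262 CPM (next 68.0) and Hnrnpk at 274 CPM (next 180.0), and lowest for Hnrnpc at 133 CPM (next 264). D7 was highest among the mutants for Hnrnpa1 at 49.9 CPM (next 21.4), Snrpd1 at 208 CPM (next 136) and Snrpd3 at 76.8 CPM (next 26.7). Of the wt/wt oocytes, wt5 was highest for Hnrnpa2b1 at 268 CPM (next 227) and for Snrpd3 at 306 CPM (next 142). For Snrpd3 both flagged oocytes lay on the high side of their own group, and the 2 groups still did not overlap.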

How the results depend on the processing

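Of 279 recomputed counts and medians, 242 stayed within 1.5 times the reported count or within the spread of the reported median. Members called ranged from 12 to 20 with each oocyte left out in turn, higher from 5 to 11, lower from 7 to 9, Srsf from 2 to 5, Hnrnp from 4 to 6, Snrp from 2 to 5, Sf3a and Sf3b from 1 to 2, Prpf from 2 to 3, and other splicing genes from 13 to 34. The 5 higher came without wt1, wt3 or D3, the 2 Srsf genes without wt1, wt3, wt4 or D3, the 2 Sf3a and Sf3b genes without D3, the 3 Prpf genes without wt4, and the 5 Snrp genes without C3. Other splicing genes called fell to 15 without wt1, 14 without wt3 or wt4 and 13 without D1.

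Apart from the main comparison, wt/wt controls alone, library totals and the f/f oocyte alone, the share of all genes called is not given here. Counts of members called in the remaining fits of this section therefore cannot be set apart from a change over all genes. With limma voom 13 members were higher, and 4 Snrp and 2 Sf3a and Sf3b genes were called. Over library totals 14 members were lower, 4 Snrp genes were called, and the median was -0.56 where that of all genes moved to -0.22. Against the wt/wt oocytes alone 5 Snrp genes were called. With the f/f oocyte alone as control edgeR called 0 members (0 higher, 0 lower, and 0 in each prefix) and 0 other splicing genes, and 8 of the 60 members, 13 of 105 other splicing genes and 1670 of 8811 genes had an unadjusted p under 0.05. Over all genes 3 of 8811 were called there. Other tools were not run on that comparison, whose single control oocyte is assumed to vary like the mutants. The numbers of the descriptions count libraries and do not pair them. Over 4 pairs of control and mutant libraries with the same number, the deviations from the group means correlated at -0.09 to 0.10. With every library as its own sample and the replicate block, 8 members were called (4 higher, 4 lower), with 0 Srsf, 3 Hnrnp and 1 Snrp gene and 13 other splicing genes. In that fit number 1 held control libraries alone and numbers 6 to 9 held mutant libraries alone. The oocytes wt1, D4 and D7 thus added nothing to its mutant minus control difference. That difference rested on the 4 pairs with the same number, and D3 was in those numbered 4 and 5. The cause of these differences was not tested, and the fits with wt/wt or f/f controls alone also held fewer oocytes.

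Of 415 recomputed fold changes of called members, 349 stayed past the threshold in the same direction, 65 no longer passed it and 1 turned, Snrpd3 at 0.59 with the f/f oocyte alone as control. Of 310 of named members not called, 9 passed it (Sf3b1 once at an unadjusted p under 0.05 only) and 26 changed sign. These were Hnrnpc (0.0319 with voom, 0.00655 without C3, 0.00516 without D4), Hnrnpf (0.11 without C3), Snrpe (0.0272 with filterByExpr, 0.0443 with 1 library per oocyte, 0.13 without C3, 0.0948 without D1, 0.0875 without D2), U2af2 (0.37 with voom, 0.12 with the replicate block, 0.62 without C3), Srsf2 (-0.47 with voom, -0.15 over library totals, -0.24 with the replicate block, -0.23 with GC and length trends removed, -0.56 without D4), Sf3a1 (-0.0308 over library totals, -0.51 with the f/f oocyte alone), Snrpb (-0.055 over library totals), Hnrnpa1 (-0.66 with the f/f oocyte alone) and Prpf19 (-0.15 with the f/f oocyte alone). Leaving out C3 and using wt/wt controls alone are the same comparison. Of the 35 members tested with at most 5% shared words, 11 were called, and the share of all genes called under the same limit was not computed. With counts thinned to the lowest total 17 members were called. For members with 0 counts depth allowed only the upper limits given.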
